A study of Mus musculus with 13 samples.

Results

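Olfactory receptor (Olfr) and vomeronasal receptor (Vmn1r and Vmn2r) genes were examined in chemically induced skin tumours of mice with and without the histone methyltransferase G9a. They were chosen by name: every probe set whose single gene symbol in the platform annotation is Olfr, Vmn1r or Vmn2r followed by a number. This gave 79 of the 45141 probe sets of the array, for 74 of 17097 named genes: 42 probe sets for 39 Olfr genes, 29 for 29 Vmn1r genes and 8 for 6 Vmn2r genes. The mouse annotation lists 1459 protein-coding genes named in this way, so the array reads a small part of the families. No measured value entered this rule, although earlier results of these data were known when the families were chosen.

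Total RNA came from tumours labelled as squamous cell carcinoma (SCC) in the skin of G9a cKO mice (conditional knockout, 7 arrays) and G9a WT mice (6 arrays). In both groups the carcinogen DMBA at 0.25 mg/ml and the tumour promoter TPA at 0.02 mg/ml, in volumes of 200 µl, were put on the shaved back weekly over 6 weeks from 8 weeks of age, and TPA was then given more often for at most 20 weeks. The sources used here name neither the Cre driver of the knockout nor the cells in which it acts. Whole tumours were measured, so a difference in the number of cells of a type and a difference in RNA per cell cannot be told apart.

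Olfactory and vomeronasal receptors are G protein-coupled receptors that detect odorants and pheromones in the nose. Each mature olfactory sensory neuron uses a single olfactory receptor gene. It keeps the others silent in compact chromatin that carries methylated lysine 9 of histone H3, the residue that G9a methylates. In skin the genes are normally silent, with a few members known from tissues outside the nose. The arrays therefore allow the question whether normally silent genes had more RNA in tumours lacking G9a, read against 23 nonspecific control probe sets that match no mouse transcript and cover probes of rising content of G and C.

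Array medians over all probe sets were 5.12 to 5.14 in cKO tumours and 5.09 to 5.14 in WT tumours on the log2 intensity scale. Ehmt2, which encodes G9a, fell on 1 of its 2 probe sets to 6.01 ± 0.10 in cKO tumours (n = 7), against 8.33 ± 0.19 in WT tumours (n = 6), with no overlap (two-sided exact permutation p = 0.000583, the smallest the design allows). The other probe set read 7.42 ± 0.04 in cKO and 7.29 ± 0.19 in WT tumours (two-sided exact permutation p = 0.131, n = 7 and 6). Within each group, arrays that follow one another mirrored each other around the group mean: in 6 such pairs their deviations correlated at -0.953 to -0.881 over all probe sets and at -0.964 to -0.827 over the receptor probe sets. Group differences were therefore fitted with limma, over all probe sets, both without and with a mean for each pair, and the words rose and fell are kept for probe sets with a Benjamini-Hochberg adjusted p under 0.05 in each of them. The number of arrays limits the precision, and nothing states that the tumours came from different mice. P-values without the pair means therefore describe the spread between these samples only. Those with the pair means take their error from the spread within pairs, which is the mirrored part, and not from the spread between pairs.

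The receptor probe sets lay within the range of the nonspecific controls in both genotypes. Their median level on single arrays was 3.85 to 3.94 in cKO tumours and 3.81 to 3.91 in WT tumours, and the brightest read at most 5.70 in cKO and 5.69 in WT tumours. The controls spanned wider ranges: the lowest read 3.05 to 3.12 in cKO and 2.97 to 3.04 in WT tumours, and the highest 5.86 to 6.21 in cKO and 6.14 to 6.56 in WT tumours. All 79 receptor probe sets stayed under the highest control of their array on all 13 arrays, whereas 59.4% of all probe sets did so. That bound is set by 1 control, for the probes richest in G and C, which averaged 6.17 over all arrays. The next highest control averaged 4.97. The 6 brightest receptor probe sets averaged 5.01 to 5.54, between these 2 controls.

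**Figure D1:**
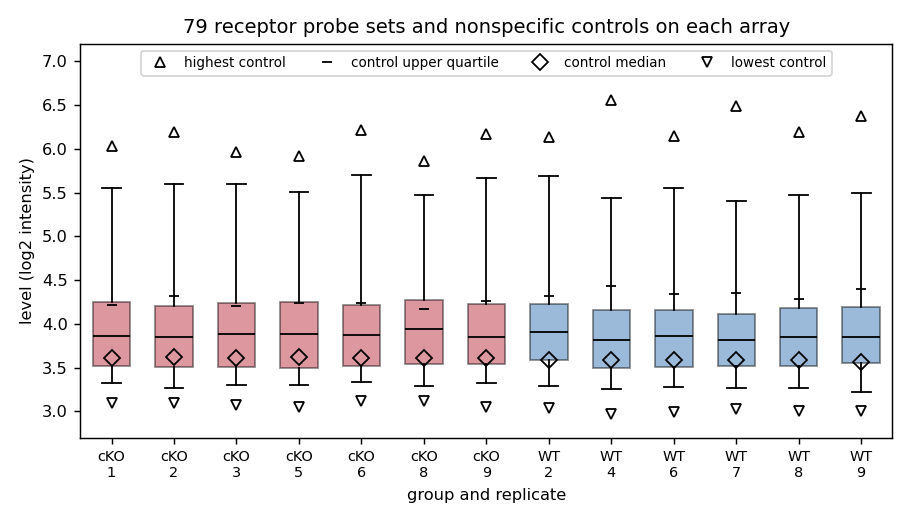
Levels (log2 intensity, vertical axis) of the 79 receptor probe sets on each of the 7 G9a cKO arrays and then the 6 G9a WT arrays, as boxes with quartiles, median and whiskers to the extremes, with the nonspecific controls as symbols. The receptor medians lie between 3.81 and 3.94 on all arrays, and no receptor reaches the highest control.

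A lower background level, the upper quartile of the controls on each array, was passed on all arrays of a group by 16 receptor probe sets in cKO tumours and by 12 in WT tumours, and those 12 were among the 16. This level was itself lower on cKO arrays (4.17 to 4.32) than on WT arrays (4.29 to 4.44). Of the 79, 56 stayed below it on all 13 arrays (28 Olfr, 24 Vmn1r and 4 Vmn2r). The control median was passed on all arrays by 52 in cKO and 51 in WT tumours. No receptor probe set was below the upper quartile on all WT arrays and above it on all cKO arrays, and none showed the reverse. Among all probe sets 519 (1.15%) did the first and 38 (0.0842%) the second. No source used here gives the content of G and C of the receptors' own probes, so the matching control of each is unknown.

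Differences between the genotypes were small and went both ways. The 79 differences, cKO minus WT, ran from -0.22 to 0.35 on the log2 scale, with a median of 0.03, and 48 were above 0 and 31 below. The median depended on the scaling: it was 0.0034 after cyclic loess, 0.0054 after quantile normalization, 0.0154 after median centring of each array and 0.073 with each array centred on its controls. Over all probe sets the median was 0.0007 and the range -3.65 to 5.62. No receptor probe set differed by more than 0.5 in either direction, against a background of 9.98% of all probe sets, and none by more than 1, against 1.58%. Of the probe sets in the 3 lowest deciles of level, where 63 of the 79 receptors lie, 275 of 13543 differed by more than 0.5. The 95% intervals of all 79 lay between -0.37 and 0.44 without the pair means, and between -0.48 and 0.54 with them, with Vmn1r148 and Vmn2r1 at the ends. These intervals rest on arrays that mirror each other, and an intensity near background understates a change in RNA.

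Without the pair means, 35 of 79 receptor probe sets passed (limma adjusted p under 0.05), 20 higher and 15 lower in cKO, which is 44.3%, against a background of 47.9% of all probe sets, 24.5% higher and 23.4% lower. Both fits called 17, of which 11 were higher and 6 lower, or 21.5%, against a background of 27.1% (13.9% higher and 13.1% lower). The groups did not overlap for 22 receptor probe sets, 14 higher and 8 lower, or 27.8%, where 24.2% of all probe sets did not overlap (13.3% higher and 10.9% lower). These shares are near the background. With each array centred on its controls instead, 30 receptors were higher and 7 lower, so that 81.1% of the called ones were higher, against 57.1% as deposited, and over all probe sets the share was 63.0%, against 51.1% as deposited. After quantile normalization 18 receptors were higher and 19 lower. In the 3 lowest deciles of level as deposited 18 of 63 receptors were higher and 11 lower, against backgrounds of 30.1% higher and 17.8% lower. By single decile, in the lowest 12 of 30 were called against a background of 45.3%, in the second 12 of 23 against 48.1%, in the third 5 of 10 against 50.2% and in the fourth 6 of 8 against 51.0%. None of 4 was called in the fifth decile (background 51.2%) and none of 4 in the sixth (51.7%).

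The controls, which detect no gene, differed between the genotypes as well, further downward than upward. Their differences ran from 0.08 at GC number 4, for probes low in G and C, to -0.31 at GC number 24, and 7 were called higher and 8 lower without the pair means, and 0 higher and 4 lower in both fits (limma adjusted p). Of the 79 receptor differences, 53 lay within this range, 26 above it and 0 below it, and 78 were no larger in size than 0.307, the largest control difference, as were 76.7% of all probe sets. Olfr78 is the single exception. The yardstick of 0.307 is a decrease, and the largest control increase was 0.08, against 0.35 for Olfr78 and 0.28 for Olfr67. The controls nearest to these 2 in mean level, of GC numbers 17 and 13, differed by -0.05 and 0.04. Among receptors the correlation of difference and level was small (Pearson r = 0.08 over 79 probe sets), and among controls the difference fell with GC number (r = -0.92 over 23). Both are descriptions, and the points share the same 13 arrays.

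**Figure D2:**
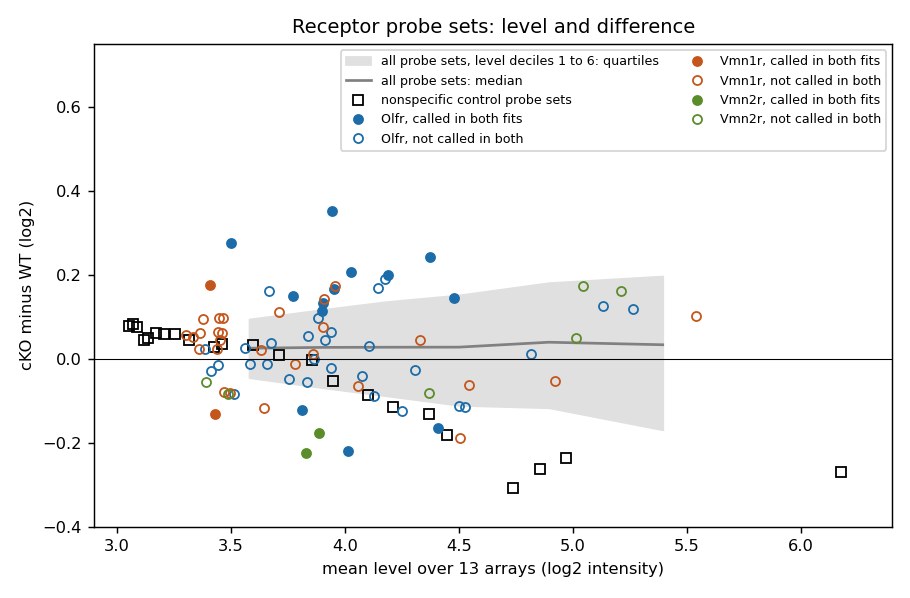
Difference between G9a cKO and G9a WT tumours (log2, vertical axis) against mean level over 13 arrays (log2 intensity, horizontal axis) for 79 receptor probe sets by family, filled where both fits called them, with 23 nonspecific controls as squares and the median and quartiles of all probe sets in level deciles 1 to 6 in grey. The receptors span -0.22 to 0.35 and the controls -0.31 to 0.08.

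Olfr78 had the largest increase. It encodes a receptor for short-chain fatty acids known from vascular smooth muscle and the carotid body. It read 4.06, 4.10 and 4.18 in cKO tumours (lowest, median and highest of 7) and 3.70, 3.76 and 3.79 in WT tumours (of 6), so the groups did not overlap. It rose by 0.35 ± 0.03 (log2, SE; limma adjusted p = 9.64e-07, and 0.00114 with the pair means), but all 13 values lay below the control upper quartile of their array. No fold change in RNA is given for it or for others where both groups lay below that level.

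Olfr67 and Olfr66, neighbours on either side of the beta-globin genes on chromosome 7, followed. Olfr67 read 3.57, 3.63 and 3.70 in cKO and 3.32, 3.34 and 3.43 in WT tumours (lowest, median, highest), below the control upper quartile throughout, and rose by 0.28 ± 0.03 (limma adjusted p = 1.33e-05). Olfr66 read 4.42, 4.49 and 4.55 in cKO and 4.13, 4.22 and 4.34 in WT tumours on its second probe set, a rise of 0.24 ± 0.04 (limma adjusted p = 0.000171). It lay above the control upper quartile on 7 of 7 cKO arrays and on 1 of 6 WT arrays. Both genes had no overlap between the groups.

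The increases of Olfr160, Olfr1508, Vmn1r53 and Olfr658 were also called by both fits and showed no overlap. Olfr160 averaged 4.12 ± 0.05 in cKO and 3.91 ± 0.05 in WT tumours, a rise of 0.21. Olfr1508 averaged 4.28 ± 0.05 in cKO and 4.08 ± 0.08 in WT tumours, a rise of 0.20. Vmn1r53, the single vomeronasal receptor that rose in both fits, averaged 3.49 ± 0.02 in cKO and 3.32 ± 0.03 in WT tumours. Olfr658 averaged 4.03 ± 0.04 in cKO and 3.86 ± 0.06 in WT tumours. The limma adjusted p of these 4 with the pair means was 0.00956 to 0.0296. Olfr658 missed the threshold with the pair means after quantile normalization (0.14, limma adjusted p = 0.0561). Olfr112, Vmn1r171 and Olfr49 had differences of 0.19, 0.17 and 0.17 that passed without the pair means only (limma adjusted p with them 0.0658, 0.0752 and 0.083). Olfr64, Olfr1507 and Olfr71, which lie outside the naming rule and were singled out after their values were seen, rose by 0.15, 0.15 and 0.13 in both fits.

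The decreases were smaller. Vmn2r88, a vomeronasal receptor of the family with a large extracellular domain, read 3.67, 3.73 and 3.76 in cKO and 3.90, 3.94 and 4.00 in WT tumours (lowest, median, highest) on its first probe set, and fell by 0.22 on the log2 scale (limma adjusted p = 1.95e-05, and 0.00482 with the pair means). Olfr2, known as a receptor for the odorant octanal, read 3.85, 3.92 and 4.00 in cKO and 4.05, 4.13 and 4.23 in WT tumours and fell by 0.22 (limma adjusted p = 0.000214, and 0.0146 with the pair means). On these probe sets the groups did not overlap, and all values lay below the control upper quartile on all 13 arrays.

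Vmn2r10 (difference -0.18), Olfr69 on its first probe set (-0.17), Vmn1r49 (-0.13) and Olfr66 on its first probe set (-0.12) were also called lower by both fits. With the mean level of Ddx3y, Eif2s3y, Kdm5d and Uty as a sex-linked covariate the call was lost for Vmn2r10 (-0.15, limma adjusted p = 0.134) and Vmn1r49 (-0.09, limma adjusted p = 0.121). Vmn1r41 and Olfr156 differed by -0.19 and -0.12 and missed the threshold with the pair means (limma adjusted p = 0.069 and 0.0674). Of these, Olfr69 and Vmn1r41 lay above the control upper quartile on all 13 arrays, with values of 4.29 to 4.40 in cKO and 4.40 to 4.55 in WT tumours for Olfr69 and of 4.37 to 4.52 in cKO and 4.48 to 4.77 in WT tumours for Vmn1r41. The controls of GC numbers 20 and 21, in the same decile of level (the fourth), differed by -0.13 and -0.18. Of the 8 receptor probe sets in that decile, 6 differences were below 0 and 2 above it. Olfr66 on its second probe set was among the latter, at 0.24. The matching control of each receptor probe set is unknown, and a part of background in these differences was not tested.

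**Figure D3:**
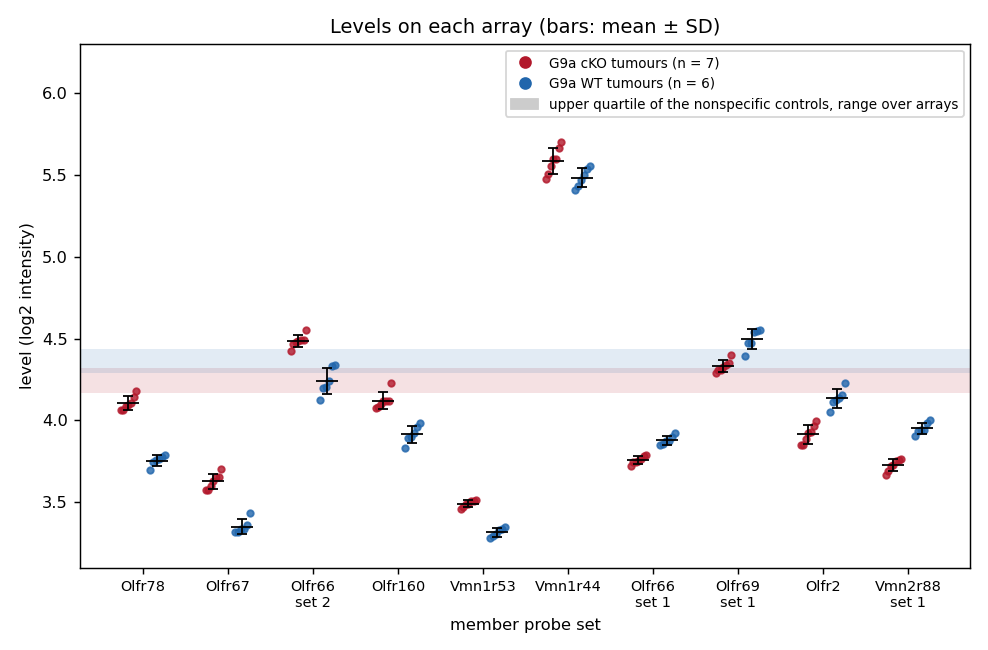
Levels on each array (log2 intensity, vertical axis) for 10 receptor probe sets, G9a cKO (n = 7) left of G9a WT (n = 6), with mean ± SD and bands for the range of the control upper quartile in each group. Olfr78, Olfr67, Olfr66 set 2, Olfr160 and Vmn1r53 lie higher and Olfr66 set 1, Olfr2 and Vmn2r88 set 1 lower on cKO arrays without overlap, while Vmn1r44, the brightest, overlaps.

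Sequences around annotated gene starts are shown for receptors at both ends of the range and for a neighbour of one of them. RefSeq (GRCm38.p6) gave windows of 300 bases, 250 before and 50 after the start, for 62 of the 74 genes, and Olfr78 is not among them. Capitals mark TATAAA on either strand, or the start codon where the annotated gene starts with it, in which case the window holds the bases before the coding sequence and may not be the promoter. Olfr67 (chr7:103791781-103792080, minus strand) and, on its second probe set, Olfr66 (chr7:103882192-103882491, minus strand) are the genes with a window that rose most. Vmn2r88 (chr14:51410751-51411050, plus strand) fell most, on its first probe set. Olfr69 (chr7:103771545-103771844, minus strand) is the neighbour of Olfr67 that fell on its first probe set. The other probe sets of Olfr66, Vmn2r88 and Olfr69 differed by -0.12, -0.05 and -0.03.
Olfr67: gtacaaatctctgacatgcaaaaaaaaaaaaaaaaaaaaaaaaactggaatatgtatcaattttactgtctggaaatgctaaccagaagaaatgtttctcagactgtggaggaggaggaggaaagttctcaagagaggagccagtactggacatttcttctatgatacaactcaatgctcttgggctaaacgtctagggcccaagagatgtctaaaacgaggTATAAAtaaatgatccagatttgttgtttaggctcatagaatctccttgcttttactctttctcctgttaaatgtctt
Olfr66: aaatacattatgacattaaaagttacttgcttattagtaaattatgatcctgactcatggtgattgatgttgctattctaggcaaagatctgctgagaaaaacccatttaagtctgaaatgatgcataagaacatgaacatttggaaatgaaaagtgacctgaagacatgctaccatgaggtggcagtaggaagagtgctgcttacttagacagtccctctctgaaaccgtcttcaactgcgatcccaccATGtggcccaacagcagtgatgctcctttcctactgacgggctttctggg
Vmn2r88: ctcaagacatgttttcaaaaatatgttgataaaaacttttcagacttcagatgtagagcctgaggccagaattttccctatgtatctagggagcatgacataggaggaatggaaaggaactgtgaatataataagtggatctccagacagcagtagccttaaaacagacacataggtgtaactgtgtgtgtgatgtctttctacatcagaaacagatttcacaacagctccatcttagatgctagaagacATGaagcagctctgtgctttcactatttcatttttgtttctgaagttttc
Olfr69: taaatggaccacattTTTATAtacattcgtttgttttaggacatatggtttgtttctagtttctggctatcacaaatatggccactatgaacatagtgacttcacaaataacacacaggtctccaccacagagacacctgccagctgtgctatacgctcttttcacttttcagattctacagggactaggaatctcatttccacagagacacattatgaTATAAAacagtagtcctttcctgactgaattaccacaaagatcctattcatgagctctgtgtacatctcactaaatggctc

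All of these windows are poor in G and C, with 36.3%, 41.7%, 38.0% and 38.7% for Olfr67, Olfr66, Vmn2r88 and Olfr69, and hold 2, 3, 0 and 2 CG dinucleotides. Over the 62 receptor genes the median was 40.2% G and C with 1.5 CG dinucleotides, against 58.7% and 17 over the 13514 genes of the array with a window. TATAAA on either strand was found in 21 of 62 receptor windows (33.9%), against 10.1% of the windows of genes on the array. How often a motif occurs depends on the share of G and C, and these motif shares were not corrected for it. Over all 1261 receptor genes of this naming with a window, TATAAA was found in 39.8%, TAATTA in 16.7% and CCCNNGGG in 4.12%. Among the 62 windows, the homeodomain core TAATTA was found in 6 (9.68%, against 3.26% of genes on the array). CCCNNGGG, a core bound by the EBF factors of olfactory neurons, was found in 2 (3.23% against 16.9%). TAATTA and TATAAA can share bases where one ends and the other begins, each was searched on both strands, and a match is a description only. In 28 of the 62 windows the annotated start is the start codon. The share of G and C in the window and the difference had a Pearson r of 0.04 over 62 genes, a description. Olfr67, which rose, and Olfr69, which fell on its first probe set only, both hold TATAAA. Olfr66, whose probe sets went both ways, and Vmn2r88, which fell on its first probe set only, hold none of the 3 motifs.

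The brightest receptors did not pass as deposited. Vmn1r44 had the highest level, with 5.48, 5.59 and 5.70 in cKO tumours and 5.41, 5.48 and 5.56 in WT tumours (lowest, median, highest), a difference of 0.10 (limma adjusted p = 0.0563) that passed without WT replicate 6 (0.12), cKO replicate 5 (0.11) or cKO replicate 8 (0.12), and with each array centred on its controls (0.14, limma adjusted p = 0.0145). Olfr701 on its second probe set, Vmn2r42, Olfr159, Vmn2r1 and Vmn2r29 on its second probe set had means of 5.04 to 5.32 in cKO and 4.95 to 5.20 in WT tumours and differences of 0.05 to 0.17, with limma adjusted p of 0.0532 to 0.268. Olfr701 passed without WT replicate 9, cKO replicate 2 or cKO replicate 8 (0.14, 0.13 and 0.14), with array weights (0.11, limma adjusted p = 0.0309) and with centring on the controls (0.16, limma adjusted p = 0.011), and Vmn2r42 without WT replicate 2 (0.25). Vmn2r1, a receptor that vomeronasal neurons of its family share broadly, overlapped widely between the groups, with 4.85 to 5.45 in cKO and 4.70 to 5.27 in WT tumours. Spread within the groups was small for most receptors, with a median SD of 0.05 in cKO and 0.06 in WT tumours. Vmn1r148, singled out after its values were seen, had the largest spread: WT replicate 2 read 5.69 and WT replicate 4, its mirrored neighbour, 4.44, while the other 11 arrays read 4.80 to 5.03.

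Of 8 receptors listed as known outside the nose, 4 were measured. Beside Olfr78, these were Olfr558, a short-chain fatty acid receptor of vascular smooth muscle, Olfr544, a receptor for azelaic acid, and Olfr16, known from sperm and regenerating muscle. Olfr558 read 3.93, 3.95 and 3.98 in cKO and 3.78, 3.85 and 3.88 in WT tumours and rose by 0.11 (limma adjusted p = 0.0013, and 0.0416 with the pair means), below the control upper quartile on all 13 arrays. That call was lost with the sex-linked covariate (0.08, limma adjusted p = 0.122) and with the pair means after quantile normalization (0.09, limma adjusted p = 0.103). Olfr544, its neighbour on chromosome 7, averaged 4.45 ± 0.09 in cKO and 4.56 ± 0.04 in WT tumours, above that level on all arrays, and its difference of -0.11 passed without the pair means only (limma adjusted p = 0.0456 and 0.185). It missed the threshold when WT replicate 2, 4, 6, 7 or 8 or cKO replicate 1, 2, 5, 6 or 9 was left out, with differences of -0.13 to -0.10 over all arrays left out in turn, and with centring on the controls (-0.07, limma adjusted p = 0.28). Olfr16 averaged 4.30 ± 0.05 in cKO and 4.32 ± 0.05 in WT tumours, a difference of -0.03 (limma adjusted p = 0.475) that turned to 0.02 with centring on the controls.

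Markers of smooth muscle and pericytes moved as well. Of 5 measured of 7, Acta2, Myh11 and Pdgfrb rose by 1.44, 0.55 and 0.57, Rgs5 fell by 1.43 and Cnn1 differed by 0.01 (limma adjusted p = 0.822). Their mean level per array was 5.83 to 6.15 in cKO and 5.42 to 6.15 in WT tumours. Their part in the differences of Olfr78 and Olfr558 was not tested. Of 6 endothelial markers 5 were higher without the pair means and 4 in both fits, and of 6 fibroblast markers 4 were higher in both fits, with median differences of 1.22 and 0.96. Over all probe sets 24.5% were higher without the pair means and 13.9% in both fits. The 6 keratinocyte markers together had mean levels per array of 9.35 to 11.2 in cKO and 9.53 to 10.6 in WT tumours, above all controls. Taken singly, Krt1 read as low as 6.34 in cKO and 6.44 in WT tumours. It passed the highest control on 7 of 7 cKO and 5 of 6 WT arrays.

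Where a gene had more than 1 probe set, the readings often differed. There were 5 such genes with 2 probe sets each, and 3 of them had differences of opposite sign as deposited. With centring on the controls the sign of the dimmer probe set turned for Olfr701 (0.03) and Olfr69 (0.01). Olfr66 fell by 0.12 on the first probe set, whose s_at suffix marks probes shared with other transcripts, and rose by 0.24 on the second. Olfr69 fell by 0.17 on its s_at probe set and differed by -0.03 (limma adjusted p = 0.385) on the other, and Vmn2r88 fell by 0.22 on its s_at probe set and differed by -0.05 (limma adjusted p = 0.173) on the other. After quantile normalization these other probe sets of Olfr69 and Vmn2r88 passed (-0.07 and -0.10, limma adjusted p = 0.0474 and 0.0306). For Olfr701 the differences were -0.01 and 0.12 and for Vmn2r29 -0.08 and 0.05, none of them called by both fits. Receptor families hold near-identical copies, so reads of 1 gene by shared probes are uncertain. Of the 7 probe sets with a suffix for shared probes, 0 were higher and 4 lower, and of the 72 others 20 were higher and 11 lower, without the pair means. Backgrounds were 24.5% higher and 23.4% lower, and whether the 2 kinds differ was not tested.

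Neighbouring receptor genes were called in both directions. Grouping genes whose starts lie within 500 kb of the next gave 10 groups of at least 3 measured genes, with 50 genes in all. Of these groups, 5 held members called in both directions without the pair means. Over all probe sets 24.5% were called higher and 23.4% lower in that fit, so any set of several genes can hold both directions. In the group from Olfr69 to Olfr65, the order along chromosome 7 is Olfr69, Olfr68 and Olfr67, then the beta-globin genes, then Olfr66, Olfr64 and Olfr65. Here the differences were -0.17 and -0.03 for the Olfr69 probe sets, 0.04 for Olfr68, 0.28 for Olfr67, -0.12 and 0.24 for the Olfr66 probe sets, 0.15 for Olfr64 and -0.08 for Olfr65. The embryonic globin genes measured between them, Hbb-bh1 and Hbb-y, differed by 0.07 and by -0.02 to 0.12, and none of their 4 probe sets was called with the pair means (limma adjusted p of 0.0754 or more).

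The largest group, 13 Vmn1r genes on chromosome 6 from Vmn1r40 to Vmn1r54, ran from -0.19 at Vmn1r41 to 0.18 at Vmn1r53, with 1 gene called higher and 1 lower by both fits. In the group of Olfr1509, Olfr1508 and Olfr1507 on chromosome 14 all 3 differences were above 0, at 0.05, 0.20 and 0.15, and Olfr1508 and Olfr1507 rose. In the group of Olfr544, Olfr558 and Olfr78 the differences were -0.11, 0.11 and 0.35. By chromosome, without the pair means, the 26 genes on chromosome 7 had 8 of 30 probe sets higher and 7 lower. The 22 genes on chromosome 6 had 6 of 22 higher and 3 lower. Backgrounds were 24.5% higher and 23.4% lower.

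**Figure D4:**
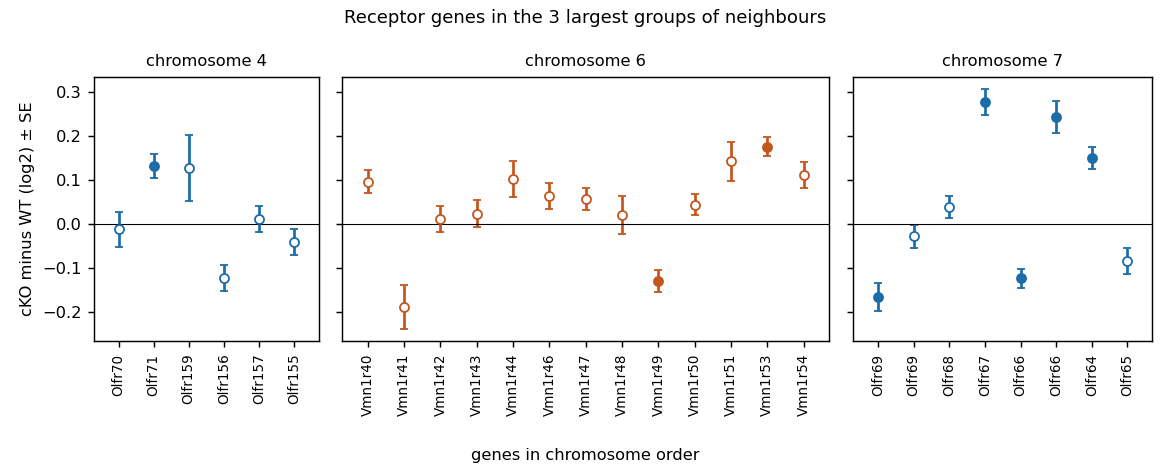
Difference between G9a cKO and G9a WT tumours (log2, vertical axis, with SE) for receptor probe sets in chromosome order in the 3 largest groups of neighbouring genes, filled where both fits called them. On chromosome 7 filled points lie both above 0 (Olfr67, Olfr66, Olfr64) and below it (Olfr69, Olfr66).

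By family, of 42 Olfr probe sets, 13 were higher and 8 lower (10 and 3 in both fits), with a median of 0.03. Of 29 Vmn1r probe sets, 7 were higher and 4 lower (1 and 1 in both fits), with a median of 0.05. Of 8 Vmn2r probe sets, 0 were higher and 3 lower (0 and 2 in both fits), with a median of -0.07. Over all probe sets 24.5% were higher and 23.4% lower (13.9% and 13.1% in both fits). Whether the families differ was not tested.

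Genes that work beside the receptors gave mixed results. Of 15 measured of 19 olfactory signalling genes, 3 were higher and 3 lower without the pair means (2 and 1 with them), with a median of 0.01. Backgrounds for this and the following gene lists were 24.5% higher and 23.4% lower, and 13.9% and 13.1% in both fits. Slc24a4, an ion exchanger of olfactory cilia, and Cngb1, a subunit of the cyclic nucleotide-gated channel, rose by 0.24 and 0.29, and Ric8b, an exchange factor for the olfactory G protein, fell by 0.33. Reep1 differed by 0.32 (limma adjusted p = 0.0207, and 0.111 with the pair means). Of the neuron's defining markers, Omp, the olfactory marker protein gene, averaged 6.26 ± 0.04 in cKO and 6.25 ± 0.07 in WT tumours, with a difference of 0.01 (limma adjusted p = 0.907). Omp passed the highest control on 7 of 7 cKO and 3 of 6 WT arrays. Cnga2, the channel's main subunit, and Stoml3 stayed below the control upper quartile on all 13 arrays, and 4 markers lay above it on all arrays. Gnal averaged 6.79 in cKO and 7.06 in WT tumours, and Adcy3 6.92 and 6.66 (limma adjusted p = 0.126 and 0.0936). Gng13 differed by -0.16 and passed without the pair means only (limma adjusted p = 0.0468 and 0.174). The 7 measured of 8 markers of olfactory sensory neurons had mean levels per array of 5.23 to 5.32 in cKO and 5.17 to 5.41 in WT tumours, and none was called by both fits. All 3 measured of 4 vomeronasal signalling genes, Gng8, Gnai2 and Gnao1, did not pass (differences of 0.04 to 0.07, limma adjusted p of 0.34 or more).

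Of 19 measured of 21 regulators and developmental genes of olfactory neurons, 5 were higher and 2 lower, and 4 and 2 with the pair means. Ebf3, of the EBF family of factors that bind receptor promoters, rose to 5.28 ± 0.07 in cKO, against 4.86 ± 0.11 in WT tumours, and Ldb1, which holds receptor enhancers together, to 10.4 ± 0.17 in cKO, against 9.85 ± 0.24 in WT tumours. Lbr, the lamin B receptor that tethers heterochromatin to the nuclear envelope and is lost from mature olfactory neurons, fell to 8.29 ± 0.04 in cKO, against 8.73 ± 0.18 in WT tumours. Robo2, an axon guidance receptor gene, fell as well: it lay below the control upper quartile on 7 of 7 cKO arrays and above it on 3 of 6 WT arrays.

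Of 10 taste, trace amine and formyl peptide receptor genes, 2 were higher and 3 lower (1 and 1 with the pair means). Tas1r3, the shared subunit of the sweet and umami taste receptors, rose to 7.28 ± 0.06 in cKO, against 6.77 ± 0.12 in WT tumours, a difference of 0.51 (limma adjusted p with the pair means = 0.00221) at a level above all controls. Tas1r1, the umami subunit, fell by 0.24. Fpr-rs3 and Tas2r119 differed by 0.13 and -0.12 (limma adjusted p with the pair means = 0.0615 and 0.0604).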

How the data were processed

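The deposited values are log2 intensities summarised by the authors with RMA, per the submitters' processing notes, where no version stands. Per the labels' protocols, 25 ng of RNA was amplified over 17 cycles and 8 µg of cDNA received a biotin label. The titles of the samples give the genotype and the replicate number.

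From these values, limma 3.58.1 (lmFit and eBayes under R 4.3.3) estimated cKO minus WT for all 45141 probe sets. Tests were two-sided, and Benjamini-Hochberg adjusted p-values under 0.05 over the 45141 were called. Neighbouring arrays of a group whose deviations correlated below -0.8 shared a mean in the second fit. Gene names come from the platform annotation. RefSeq's GRCm38.p6 tables held all 74 receptor genes by gene number, with 0 symbols changed, and gave chromosomes, gene order and the windows around gene starts. Figures were drawn with matplotlib 3.10.9.

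The receptors and gene lists were chosen with earlier results of these data known. The receptors named were the called ones with the 10 largest increases or 8 largest decreases, the 6 of highest level, 8 receptors known outside the nose where measured, any above the highest control (0), and other probe sets of these genes: 31 probe sets of 26 genes. For the other lists, up to 4 genes of smallest p were named. The other marker lists fixed had these calls without the pair means: macrophage 2 higher and 1 lower of 5, lymphocyte 3 and 0 of 5, Schwann cell 1 and 0 of 2, male germ cell 3 and 0 of 4, keratinocyte 1 and 1 of 6. Over all probe sets 24.5% were higher and 23.4% lower.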

Additional observations from a re-analysis of the deposited data

Results flagged for a closer look

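Among 66 groups of samples checked, those of the named receptors and of Ehmt2, 2 had 1 array far from the others, and chance flags about 1 group in 20. Olfr160 read 4.23 in cKO replicate 9, where the other cKO arrays read 4.07 to 4.12. Olfr658 read 4.11 in cKO replicate 6, where the others read 3.99 to 4.04.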

How the results depend on the processing

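Of the 31 named receptor differences, 28 kept their sign under all alternatives run. The others, none of them called, turned with centring on the controls: Olfr701 probe set 1 to 0.0295, Olfr16 to 0.0157 and Olfr69 probe set 2 to 0.0146 (0.0152 with the sex-linked covariate). Leaving out each array in turn gave 33 to 36 receptor probe sets called (20 to 22 higher, 13 to 15 lower), a median difference of 0.02 to 0.05, and 6 to 7 controls higher and 8 to 9 lower. Ehmt2 then differed by -2.39 to -2.27 on one probe set and by 0.0745 to 0.1733 on the other, which passed without WT replicate 9 (0.1733, limma adjusted p = 0.0465), after cyclic loess (0.2019) and after quantile normalization (0.2427). The pair means left 17 receptors called (11 higher, 6 lower) and 0 controls higher and 4 lower. After quantile normalization the pair means gave 18 receptors, 7 of them higher, and 0 controls higher. A covariate from sex-linked genes gave 17 receptors (11 higher, 6 lower), or 21.5% against 25.2% of all probe sets, and 0 controls either way. Centring on the controls gave 7 receptors lower, a median of 0.073 and 12 controls higher. Controls called higher numbered 3 after cyclic loess, 2 after median centring, 0 after quantile normalization (14 lower) and 12 with a trended robust prior. A filter at the 25th percentile of level left 20 receptors tested and 7 called (3 higher, 4 lower). That was 35%, against 46.7% of all probe sets tested. One at the control upper quartile left 18 tested and 5 called (2 higher, 3 lower), or 27.8% against 46.5%. Olfr probe sets alone gave 21 (13 higher, 8 lower), and Vmn1r and Vmn2r alone 14 (7 higher, 7 lower). With the control median as background 52 receptors in cKO and 51 in WT tumours lay above it, and with the highest control 0 and 0. The cause of these changes was not tested. Replicates numbered 2, 6, 8 and 9 exist in both genotypes, and arrays of 1 number deviated with correlations of -0.28 to 0.05. The mirroring within groups makes up most of these deviations, so the correlations cannot show a smaller shared effect. No source used here says what a shared number stands for. The replicate block over these arrays called 6 receptors (3 higher, 3 lower), or 7.59% against 19.9% of all probe sets, and 0 controls either way. Levels near the nonspecific controls limit what the arrays can show of these genes.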
